A study of Homo sapiens with 8 samples.

Results

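The metallothionein family was followed by 11 probe sets for 7 genes (MT1E, MT1F, MT1G, MT1H, MT1M, MT1X and MT2A), out of 54675 probe sets on the array and 19775 genes named by them. A probe set is a group of short oligonucleotides read out as 1 signal. All probe sets that the platform annotation gives to exactly 1 of these genes, under its current or former symbol, were taken: 2 each for MT1E, MT1F, MT1G and MT1X, and 1 each for MT1H, MT1M and MT2A. The samples were ACHN, CAKI2, A498 and CAKI1 cells, established human renal carcinoma lines that the submitters describe as clear cell carcinoma. In each line, cells given 75 nM of A939572, which blocks the enzyme SCD1 (stearoyl-CoA desaturase 1), were set after 24 h against cells given the solvent DMSO. Each line gave 1 array per treatment, 4 treated and 4 DMSO arrays in all, and separate cultures within a line are not stated. P-values therefore rest on how the difference within a line varied between lines. The design offers no comparison with untransformed kidney cells.

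Metallothioneins are small proteins, rich in cysteine, that bind zinc and copper and take up cadmium and other toxic metals. In the kidney they are known for metal binding in the proximal tubule. Zinc entering the cell activates the transcription factor MTF1, which binds metal response elements in their promoters, and glucocorticoids and oxidants are further known inducers. The members are near-identical paralogs in 1 cluster on chromosome 16, in the order MT2A, MT1E, MT1M, MT1F, MT1G, MT1H, MT1X. Of the 11 probe sets, the 9 bright ones carry identifiers ending in _x_at, the platform's mark for probes that can match several transcripts. The 2 others were dim on most arrays. A signal is therefore given by probe set, and none can be assigned to a single paralog with certainty.

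Promoter windows were available for 3 members, MT2A, MT1H and MT1X. Their promoters are shown because metals are known to act on metallothionein genes through an element there. Each is the 250 bases before the start in RefSeq (GRCh38.p14, plus strand), and the capitals mark the metal response element core, TGCACNC or TGCGCNC on either strand.
MT2A, chr16:56608334-56608583: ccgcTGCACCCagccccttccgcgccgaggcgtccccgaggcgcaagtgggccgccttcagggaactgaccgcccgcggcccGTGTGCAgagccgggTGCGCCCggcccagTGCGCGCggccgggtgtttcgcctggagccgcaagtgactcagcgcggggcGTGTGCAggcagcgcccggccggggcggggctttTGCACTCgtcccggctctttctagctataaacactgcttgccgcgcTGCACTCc
MT1H, chr16:56669564-56669813: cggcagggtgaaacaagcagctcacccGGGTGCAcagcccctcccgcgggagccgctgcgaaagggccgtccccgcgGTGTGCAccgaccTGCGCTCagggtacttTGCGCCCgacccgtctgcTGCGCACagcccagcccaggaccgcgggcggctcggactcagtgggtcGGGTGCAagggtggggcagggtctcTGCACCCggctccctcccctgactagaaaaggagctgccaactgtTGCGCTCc
MT1X, chr16:56682220-56682469: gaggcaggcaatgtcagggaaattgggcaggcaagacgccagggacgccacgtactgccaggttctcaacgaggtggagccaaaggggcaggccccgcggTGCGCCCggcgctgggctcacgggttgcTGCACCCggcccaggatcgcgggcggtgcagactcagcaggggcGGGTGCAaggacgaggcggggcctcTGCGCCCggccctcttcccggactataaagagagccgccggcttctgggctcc
The core occurred 7 times in the MT2A window, 8 times in that of MT1H and 4 times in that of MT1X, with no overlaps. Of 35116 RefSeq windows of this length, 24.8% held at least 1 core and 0.37% held at least 4. The AP-1 site TGANTCA, searched on both strands, occurred 1 time in MT2A, at position -104 from the start, and in 6.57% of all windows. A match is a string and was not tested as a binding site. Promoters of MT1E, MT1F, MT1G and MT1M are not shown.

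Signals were analysed as log2(signal + 16) after quantile normalization, and differences are A939572 minus DMSO with the SD over 4 lines. The offset understates the change of dim genes. A probe set was tested where its mean over the 8 arrays reached 6.41 on this log2 scale, the median of all probe sets. Array medians of the deposited signal were 68.6 to 76.3 in treated cells and 71.2 to 84.2 in DMSO. For the ACTB control, signal at the 3′ end over signal at the 5′ end was 3.02 to 4.22 in treated cells and 2.12 to 2.33 in DMSO, so this measure of RNA integrity moved with treatment. For GAPDH it was 1.01 to 1.11 in treated cells and 0.962 to 1.05 in DMSO. Within each line the GAPDH ratio was also higher with A939572, from 0.988 in DMSO to 1.01 in ACHN and from 0.962 to 1.07 in CAKI1. The part of these array measures in the results was not tested. Of 9 renal markers with a probe set, 8 passed the filter, PAX8, KRT18 and VIM among them, and CDH16 did not. PAX8, a renal lineage factor, rose by 0.38 (limma adjusted p = 0.032). It was the 1 called higher of 8 tested, a share near the 13.0% of all probe sets called higher. None of the 8 passed as lower, but the epithelial keratins KRT8 (-0.49) and KRT18 (-0.33) had an unadjusted p under 0.05, with adjusted p of 0.0586 and 0.0997. PAX2 had -0.43 (adjusted p = 0.14), and the median of the 8 was -0.09. All 3 measured leukocyte markers lay below the filter, PTPRC included, with summed signals of 30.1 to 136 in treated cells and 70.6 to 133 in DMSO. Of 4 endothelial markers only PECAM1 was tested, at -0.21 and not past the threshold, and of 5 fibroblast markers only COL1A1, which fell by 1.04 (adjusted p = 0.00312). Summed fibroblast marker signals were 231 to 1012 in treated cells and 226 to 1353 in DMSO, and their part in the results was not tested.

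Metallothionein signals fell with A939572. All 9 tested probe sets were lower at an adjusted p under 0.05 (limma, 2-sided, Benjamini-Hochberg over 27307 probe sets), 0 were higher at an adjusted or an unadjusted p under 0.05, and each was lower in 4 of 4 lines. All 9 were also at least 1.5-fold lower, which 9.36% of all tested probe sets were at that p. Among all probe sets tested, 13.0% were called lower and 13.0% higher (26.0% in either direction), and 22.6% were lower in 4 of 4 lines. With each array centred on its median, 2841 were called lower and 4335 higher, against 3543 lower and 3545 higher here, and the 9 calls held. Mean log2 differences of the 9 ran from -1.09 to -0.70, with a median of -0.82 against -0.01 over all probe sets tested. Every one lay below the 10th percentile of all probe sets tested, which was -0.64. The 9 probe sets can read the same transcripts and are not 9 separate observations. The calls rest on the pairing by line, since with no block for line 0 of the 9 passed in limma (1 at an unadjusted p under 0.05; adjusted p 0.256 to 0.911). In bulk RNA, fewer cells carrying a transcript and less of it per cell cannot be told apart.

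MT2A encodes the family's type 2 protein, the most widely expressed isoform. Its probe set 212185_x_at had deposited signals of 30228, 8359, 11522 and 23837 in treated ACHN, CAKI2, A498 and CAKI1 cells, against 45472, 20431, 17671 and 30164 in the same lines given DMSO. Every treated array was below its own control, while the groups overlapped, as treated ACHN and CAKI1 lay above CAKI2 and A498 given DMSO. The log2 difference was -0.70 ± 0.35 (SD, n = 4 lines; limma adjusted p = 0.00344), the smallest among the 9. Treated signals were lowest against control in CAKI2, at 40.9%, with 65.2% in A498, 66.5% in ACHN and 79.0% in CAKI1. In ACHN given DMSO this probe set reached 83.4% of the highest signal on its array, in A498 28.8%. Whether brightness near the top of the range limited the measured change was not tested.

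MT1X encodes a type 1 isoform and had 2 bright probe sets. The brighter, 208581_x_at, read 23362, 5231, 6920 and 15879 in treated ACHN, CAKI2, A498 and CAKI1 cells, against 40078, 12799, 11779 and 24184 in the same lines given DMSO. Its log2 difference was -0.82 ± 0.27 (limma adjusted p = 0.001), largest in CAKI2 at -1.22. The other, 204326_x_at, had 3880, 4266, 2294 and 3248 in treated ACHN, CAKI2, A498 and CAKI1 cells, against 9198, 5516, 4123 and 5574 in the same lines given DMSO. The mean was the same, -0.82 ± 0.38 (limma adjusted p = 0.00344), but the lines were ranked otherwise, with -1.26 in ACHN and -0.34 in CAKI2. The 2 probe sets thus gave CAKI2 the largest and the smallest fall of the 4 lines, a gap of 0.87.

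MT1E, another type 1 isoform, showed the widest range between lines among the tested probe sets. Probe set 212859_x_at had 22003, 336, 319 and 3356 in treated ACHN, CAKI2, A498 and CAKI1 cells, against 32944, 576, 503 and 7608 in the same lines given DMSO. ACHN stood 69.1-fold above A498 in treated cells and 65.5-fold above it in DMSO cells. The second, 216336_x_at, read 12713, 1880, 1020 and 6696 in treated ACHN, CAKI2, A498 and CAKI1 cells, against 24782, 4779, 1263 and 10569 with DMSO. Here ACHN was 12.5-fold above A498 in treated cells and 19.6-fold above it in DMSO cells. Despite these different ranges the mean changes were close, -0.77 ± 0.28 (limma adjusted p = 0.00337) for the first and -0.81 ± 0.40 (adjusted p = 0.00409) for the second.

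**Figure D1:**
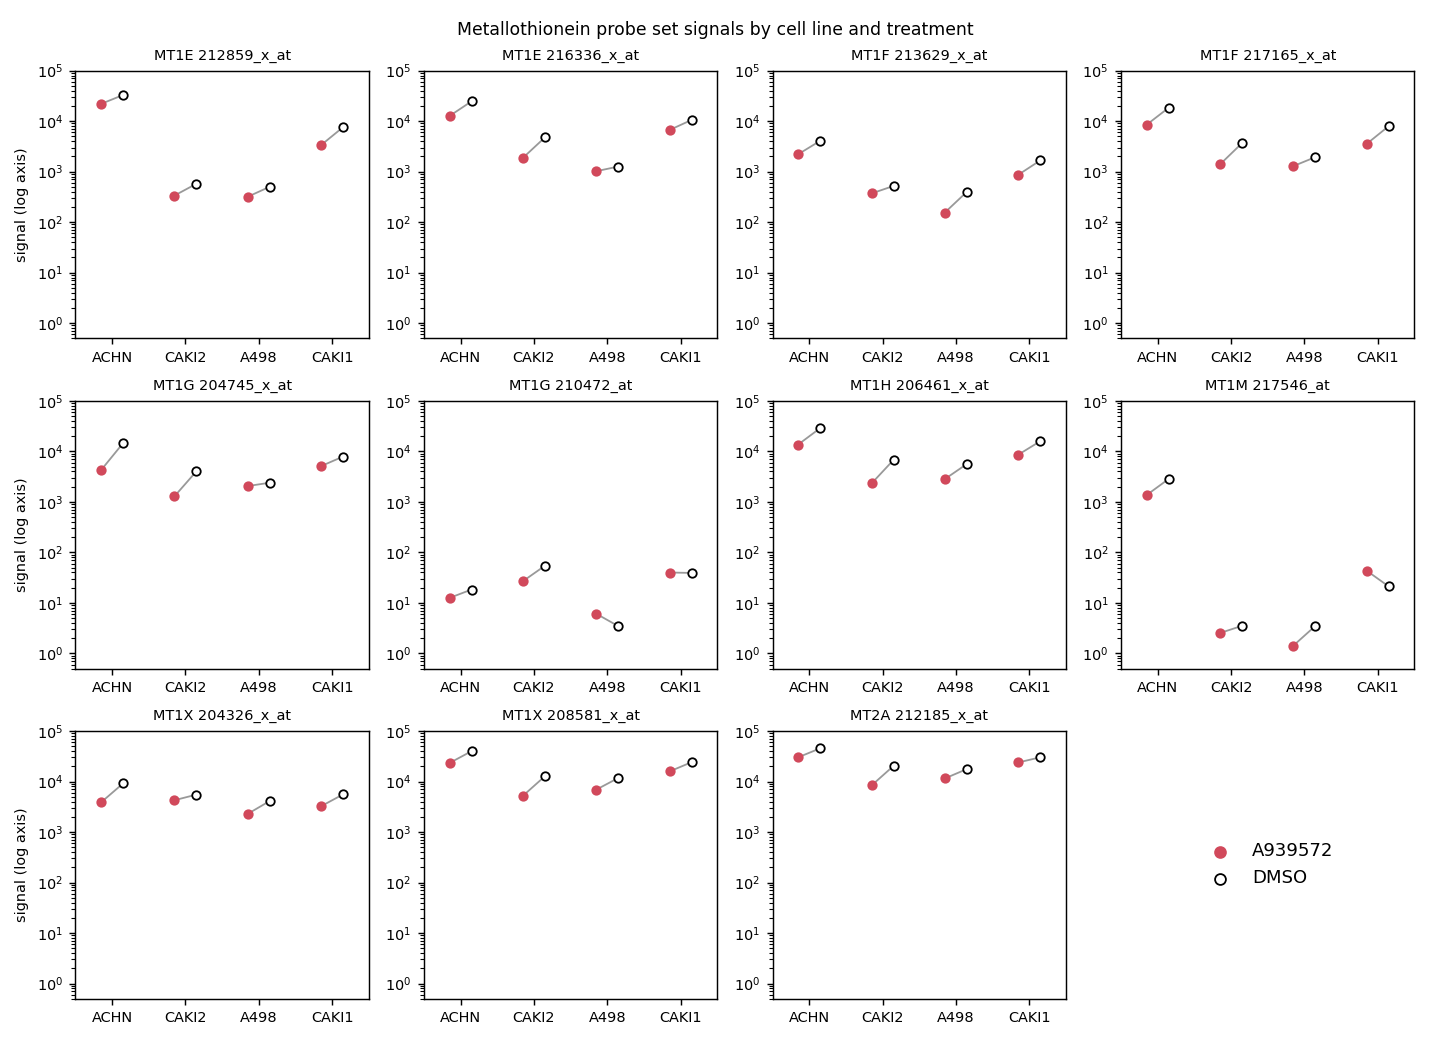
Deposited signal (log axis) of each of the 11 metallothionein probe sets in 4 renal carcinoma lines, with filled points for A939572 and open points for DMSO, 1 array each, joined within a line. In the 9 bright probe sets every treated point lies below its DMSO point, and MT1M 217546_at is bright in ACHN alone.

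Among the tested probe sets, those of MT1F and MT1H, type 1 isoforms, had the largest mean falls together with that of MT1G. MT1F probe set 217165_x_at had 8523, 1396, 1289 and 3549 in treated ACHN, CAKI2, A498 and CAKI1 cells, against 18492, 3682, 1942 and 7975 in the same lines given DMSO. It fell by 1.08 ± 0.31 on the log2 scale, or 2.11-fold (limma adjusted p = 0.000681). The dimmer MT1F probe set 213629_x_at had 2214, 370, 155 and 865 in treated ACHN, CAKI2, A498 and CAKI1 cells, against 4082, 521, 399 and 1664 with DMSO. It fell by 0.90 ± 0.32 (limma adjusted p = 0.00311), most in A498 at -1.29, where 217165_x_at changed least at -0.65. MT1H probe set 206461_x_at had 13655, 2310, 2827 and 8565 in treated ACHN, CAKI2, A498 and CAKI1 cells, against 28847, 6768, 5619 and 15858 with DMSO. Its fall of 1.09 ± 0.30 (2.14-fold, limma adjusted p = 0.00045) was the largest mean change of the family, from -0.86 in CAKI1 to -1.53 in CAKI2.

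MT1G, a type 1 isoform, had the tested probe set whose response varied most between lines. Probe set 204745_x_at had 4262, 1287, 2054 and 5103 in treated ACHN, CAKI2, A498 and CAKI1 cells, against 14603, 4040, 2392 and 7880 in the same lines given DMSO. The log2 differences were -1.81 in ACHN and -1.64 in CAKI2, but -0.26 in A498 and -0.59 in CAKI1. Their mean was -1.07 ± 0.76 (limma adjusted p = 0.00889). With the mean of both MT1G probe sets the difference was -0.61 and did not pass (adjusted p = 0.0588). The second, 210472_at, was dim and untested, with 12.6, 26.9, 6.08 and 39.9 in treated ACHN, CAKI2, A498 and CAKI1 cells, against 18.4, 54.5, 3.45 and 39.1 with DMSO. Its log2 differences were -0.67 for CAKI2, -0.11 for ACHN, 0.01 for CAKI1 and 0.21 for A498. Over the 8 arrays it correlated with the first at a Pearson r of 0.30.

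MT1M, the last type 1 member, was bright in ACHN alone. Its probe set 217546_at had a signal of 1369 in treated ACHN cells against 2852 in ACHN given DMSO. Signals were 2.53 in treated CAKI2, 1.42 in A498 and 43.3 in CAKI1 cells, against 3.51, 3.51 and 21.1 in those lines given DMSO, all below the array medians. The log2 difference was -1.08 in ACHN, within the range of the bright members there, and 0.67 in CAKI1 on dim signals. The mean over the 8 arrays, 6.25, missed the filter, and in a fit without a filter its difference was -0.15 (limma adjusted p = 0.873).

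**Figure D2:**
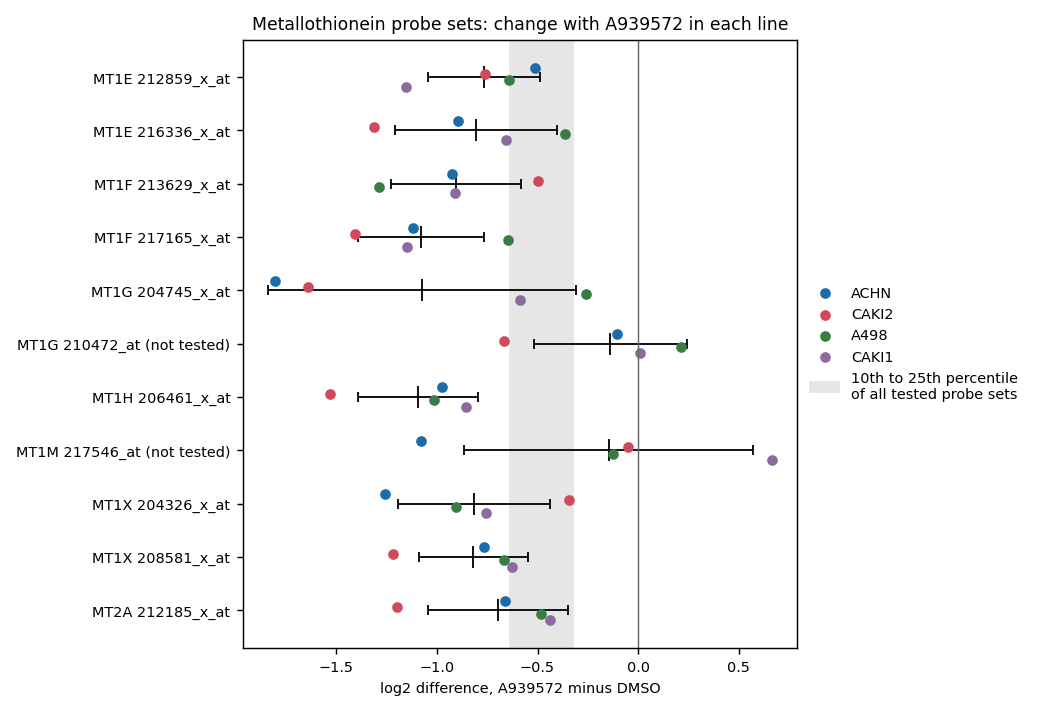
Log2 difference, A939572 minus DMSO, for each of the 11 probe sets, with 1 coloured point per line and black bars for the mean ± SD over 4 lines. All points of the 9 tested probe sets lie below 0, and the grey band spans the 10th to 25th percentile of the mean differences of all tested probe sets.

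The size of the fall differed between lines, with 1 array per treatment and so no test within a line. In CAKI2, 6 of the 9 tested probe sets were at least 2-fold lower, where 5.62% of all tested probe sets were. In ACHN 3 were, against 7.58% of all, in A498 2, against 5.38%, and in CAKI1 2, against 4.93%. The A498 count was 1 with each array centred on its median or with no normalization. None of the 9 was at least 2-fold higher in any line, where 7.84% of all tested probe sets were for ACHN, 6.51% for CAKI2, 6.26% for A498 and 5.32% for CAKI1. The median log2 difference of the 9 was -1.22 for CAKI2, -0.92 for ACHN, -0.76 for CAKI1 and -0.65 for A498. CAKI2 showed the largest fall in 5 of the 9 probe sets, ACHN in 2, A498 in 1 and CAKI1 in 1. The smallest fall was in CAKI2 for 2 of the 9, in ACHN for 1, in A498 for 3 and in CAKI1 for 3.

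Levels in DMSO differed more between lines than the mean change with treatment. On deposited signals the order in DMSO was ACHN, CAKI1, CAKI2, A498 in all 9 tested probe sets. On the normalized log2 scale it was so in 8, with CAKI2 at 12.41 and CAKI1 at 12.40 for MT1X 204326_x_at. In treated cells 4 of the 9 had that order on either scale, and ACHN was highest in 7. CAKI1 was highest for MT1G 204745_x_at, at 5103 against 4262 in ACHN, and CAKI2 for MT1X 204326_x_at, at 4266 against 3880 in ACHN. CAKI2 and A498 lay close for MT1E 212859_x_at, with 576 and 503 in DMSO cells, and with 1 array each the order of such neighbours cannot be set against a spread. The spread between lines in DMSO was 65.5-fold for that MT1E probe set but 2.23-fold for MT1X 204326_x_at and 2.57-fold for MT2A. For 0 of the 9 probe sets were all treated arrays below all DMSO arrays, as was so for 4.34% of all tested probe sets.

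**Figure D3:**
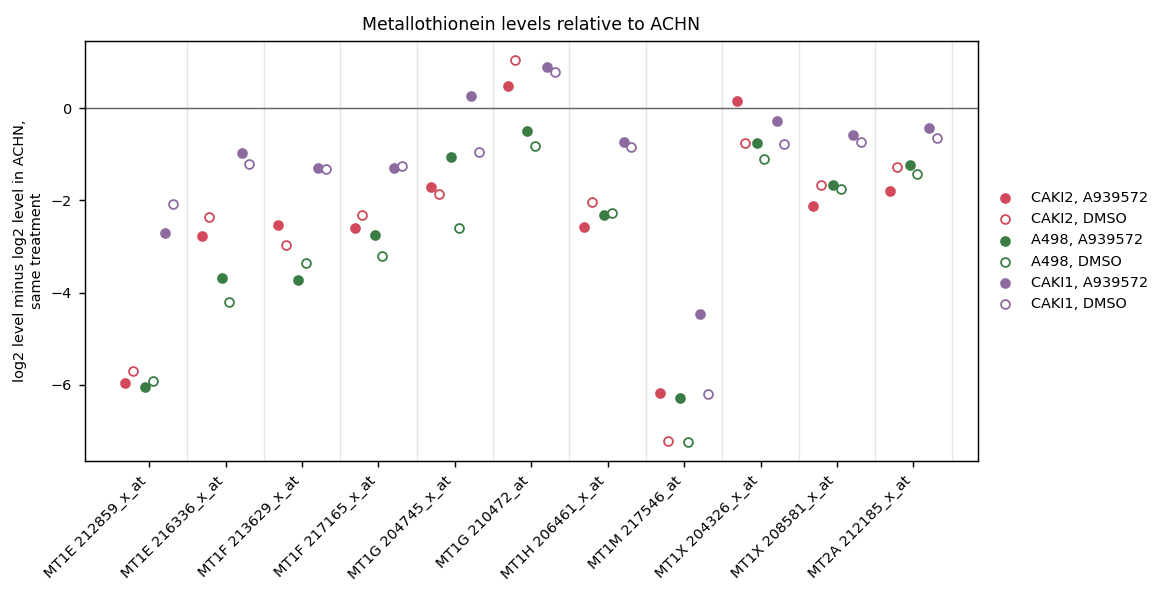
Log2 level of each probe set in CAKI2, A498 and CAKI1 minus that in ACHN under the same treatment, with filled points for A939572 and open points for DMSO, 1 array each. In DMSO the 9 tested probe sets lie below the ACHN line at 0 in every line, by up to 5.92 for MT1E 212859_x_at in A498.

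The tested probe sets followed each other across arrays. Pearson r over the 8 arrays ranged from 0.52 to 0.997 among their 36 pairs, with a median of 0.93. These arrays share 4 lines and the probe sets can share transcripts, so the values describe the signals and not separate genes. The 2 probe sets of MT1E had an r of 0.94, those of MT1F 0.97 and those of MT1X 0.64. Among 12087 other genes, the profiles most like the mean of the tested members were those of MRE11 (r = 0.981), SLC40A1 (0.979), SPPL3 (0.977), PHACTR2 (0.977) and YARS2 (0.975). SLC40A1, the iron exporter ferroportin, had 665, 13.2, 17.1 and 402 in treated ACHN, CAKI2, A498 and CAKI1 cells, against 2066, 65.9, 39.8 and 550 with DMSO. These genes were picked for a profile that includes the treatment difference, so their differences are a description with no test. The log2 difference was -1.03 ± 0.58 for SLC40A1, -0.54 ± 0.04 for MRE11, a DNA repair nuclease, and -0.49 ± 0.23 for YARS2, the mitochondrial tyrosyl-tRNA synthetase. It was -0.33 ± 0.24 for SPPL3 and -0.48 ± 0.40 for PHACTR2.

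Of 3 other metallothioneins with a probe set, 2 were tested and both were called lower, where 13.0% of all probe sets were. The probe set of 1 of them lay only just above the filter. MT1HL1, a copy of the family outside the cluster, had 16353, 4313, 3854 and 13705 in treated ACHN, CAKI2, A498 and CAKI1 cells, against 32148, 7071, 9570 and 19260 with DMSO. It fell by 0.84 ± 0.34 (limma adjusted p = 0.0016) in a probe set, 211456_x_at, that also ends in _x_at. MT3, the isoform best known from brain, was dim, with 48.2, 19.0, 76.0 and 74.0 in treated ACHN, CAKI2, A498 and CAKI1 cells, against 163, 141, 110 and 110 with DMSO. It passed the filter through the DMSO arrays, at a mean log2 level of 6.07 in treated cells and 7.16 in DMSO, so its call is no separate support. The log2 difference was -1.08 ± 0.83 (adjusted p = 0.0396), with -1.34 at offset 1 and -0.70 at offset 64. The call was lost without ACHN (0.125) or CAKI2 (0.148), with no filter (0.0989) and with offset 1 (0.0523). Its identifier, 205970_at, carries no mark of several transcripts. MT4, the squamous epithelial isoform, was below the filter.

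MTF1, the zinc-sensing factor that drives metallothionein genes, rose while they fell. Its brightest probe set had 1094, 1606, 2124 and 1025 in treated ACHN, CAKI2, A498 and CAKI1 cells, against 656, 797, 1057 and 534 with DMSO. Every treated array was above its own control, and the log2 difference was 0.89 ± 0.13 (limma adjusted p = 0.00137). The dimmest probe set gave 1.5 ± 0.12 (adjusted p = 0.0011) and the other 0.11 ± 0.35 (adjusted p = 0.697), so the probe sets disagreed. The dimmest passed the filter through the treated arrays, at a mean log2 level of 7.86 in treated cells and 6.35 in DMSO. Its call is therefore no separate support. SLC30A1, which exports zinc at the cell surface and is another known MTF1 target, had -0.04 ± 0.25 and did not pass (adjusted p = 0.853). SLC30A7, which moves zinc into the Golgi, rose by 1.21 ± 0.50 (adjusted p = 0.00134), with similar values in its other 2 probe sets (1.13 and 1.11). Of the 7 tested genes of zinc sensing and export, 2 rose and 0 fell (0 lower at an unadjusted p under 0.05 also), with a median difference of 0.18, where 13.0% of all probe sets were called in each direction.

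Of 11 tested zinc importers 1 rose, 2 fell and 8 did not pass, with a median of -0.04. These shares are near the 13.0% of all probe sets called in each direction. SLC39A14, which imports zinc and iron, had 21109, 11192, 22170 and 13878 in treated ACHN, CAKI2, A498 and CAKI1 cells, against 9508, 3589, 11572 and 7184 with DMSO. It rose by 1.23 ± 0.32 (limma adjusted p = 0.000284). Its next probe set, near the filter, had -0.05, and with the mean of its probe sets the difference was 0.39 (adjusted p = 0.0796). SLC39A10 fell by 0.50 ± 0.14 (adjusted p = 0.00912). SLC39A8 fell by 0.55 ± 0.32 (adjusted p = 0.0209), a call lost without CAKI2 (0.0854) or CAKI1 (0.0593), and with arrays centred on their medians (0.0581), the mean of its probe sets (0.226) or no variance trend (0.0603).

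Of 9 copper handling genes 2 rose and 1 fell, with a median of -0.11, again near the 13.0% of all probe sets called in each direction. ATOX1, the copper chaperone of the secretory pathway, fell by 0.83 ± 0.26 (limma adjusted p = 0.00173). The copper importer SLC31A1 rose by 0.59 ± 0.39 (adjusted p = 0.0215) and SLC31A2 by 0.73 ± 0.60 (0.0358). Both calls were lost without ACHN (adjusted p = 0.0847 and 0.152), without A498 (0.0597 and 0.0553), without CAKI1 (0.0824 and 0.109) or with no variance trend (0.0629 and 0.0729). Without ACHN the difference of SLC31A2 was 0.48, and with no filter its adjusted p was 0.0709. SLC31A1 had 0.64 (limma adjusted p = 0.0321) in a dimmer probe set and 0.20 in its dimmest, which did not pass (0.543).

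Glucocorticoids and heat shock are other known inducers of metallothioneins. Of 8 tested glucocorticoid genes 1 rose and 1 fell, with a median of 0.00, a share near the 13.0% of all probe sets called in each direction. FKBP5, a receptor cochaperone induced by glucocorticoids, fell by 1.21 ± 0.41 (limma adjusted p = 0.00106), and its next probe set had -1.02 ± 0.30. DUSP1, a phosphatase that stress also induces, rose by 2.08 ± 0.63 (adjusted p = 0.000223), though its dimmest probe set had 0.07 ± 0.96 and the mean of its probe sets 1.36. Of 7 heat shock genes 2 were called higher and 1 lower, with a median of 0.31, beside the same 13.0% of all probe sets in each direction. HSPA6, a strictly inducible HSP70, had 341, 174, 189 and 221 in treated ACHN, CAKI2, A498 and CAKI1 cells, against 60.6, 23.2, 106 and 17.2 with DMSO. It passed the filter through the treated arrays, the DMSO signals being dim. Its difference was 2.06 ± 0.86 (limma adjusted p = 0.00192, and 0.0057 with no filter), with 2.48 at offset 1 and 1.42 at offset 64. The mitochondrial cochaperonin HSPE1 fell by 0.73 ± 0.33 (adjusted p = 0.00259). The cochaperone DNAJB1 rose by 0.57 ± 0.31 (adjusted p = 0.0151), a call lost without ACHN (0.0518) or CAKI1 (0.0636) and with no variance trend (0.0504).

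Most oxidative stress genes rose on the arrays where metallothioneins fell. Of 9 tested, 6 rose and 0 fell (0 lower at an unadjusted p under 0.05), with a median of 0.87, where 13.0% of all probe sets were called higher. The other 3 did not pass. Of these, SRXN1 had 0.87 ± 1.02 and OSGIN1 1.32 ± 1.45 (limma adjusted p = 0.0567 and 0.0504). By line SRXN1 had 1.89 in ACHN and 1.59 in CAKI1, but 0.18 in A498 and -0.17 in CAKI2. OSGIN1 had 3.38 in ACHN, 1.12 in CAKI1, 0.82 in A498 and -0.02 in CAKI2. NQO1 had -0.24 ± 0.65 (adjusted p = 0.399), with -0.65 in CAKI2 and -0.88 in A498 but 0.54 in ACHN and 0.03 in CAKI1. HMOX1, which breaks down haem, had 17844, 11426, 7802 and 8438 in treated ACHN, CAKI2, A498 and CAKI1 cells, against 794, 4664, 3356 and 1577 with DMSO. Its log2 difference was 2.37 ± 1.5 (limma adjusted p = 0.00347), largest in ACHN at 4.48. SLC7A11, the cystine importer, rose by 1.77 ± 1.25 (adjusted p = 0.00617). By line it had 2.96 in CAKI1 and 2.74 in ACHN, but 0.81 in A498 and 0.57 in CAKI2. The glutathione synthesis genes GCLM and GCLC rose by 0.87 ± 0.69 (adjusted p = 0.013) and 0.74 ± 0.54 (0.0144), calls lost with no variance trend (0.0576 and 0.0557). Without ACHN the difference of GCLM was 0.56. That of GCLC was also lost without ACHN (0.059) or CAKI2 (0.0651). As with the members, none of the list genes named here passed with no block for line (limma adjusted p 0.0643 or above, 11 of 53 list genes at an unadjusted p under 0.05).

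**Figure D4:**
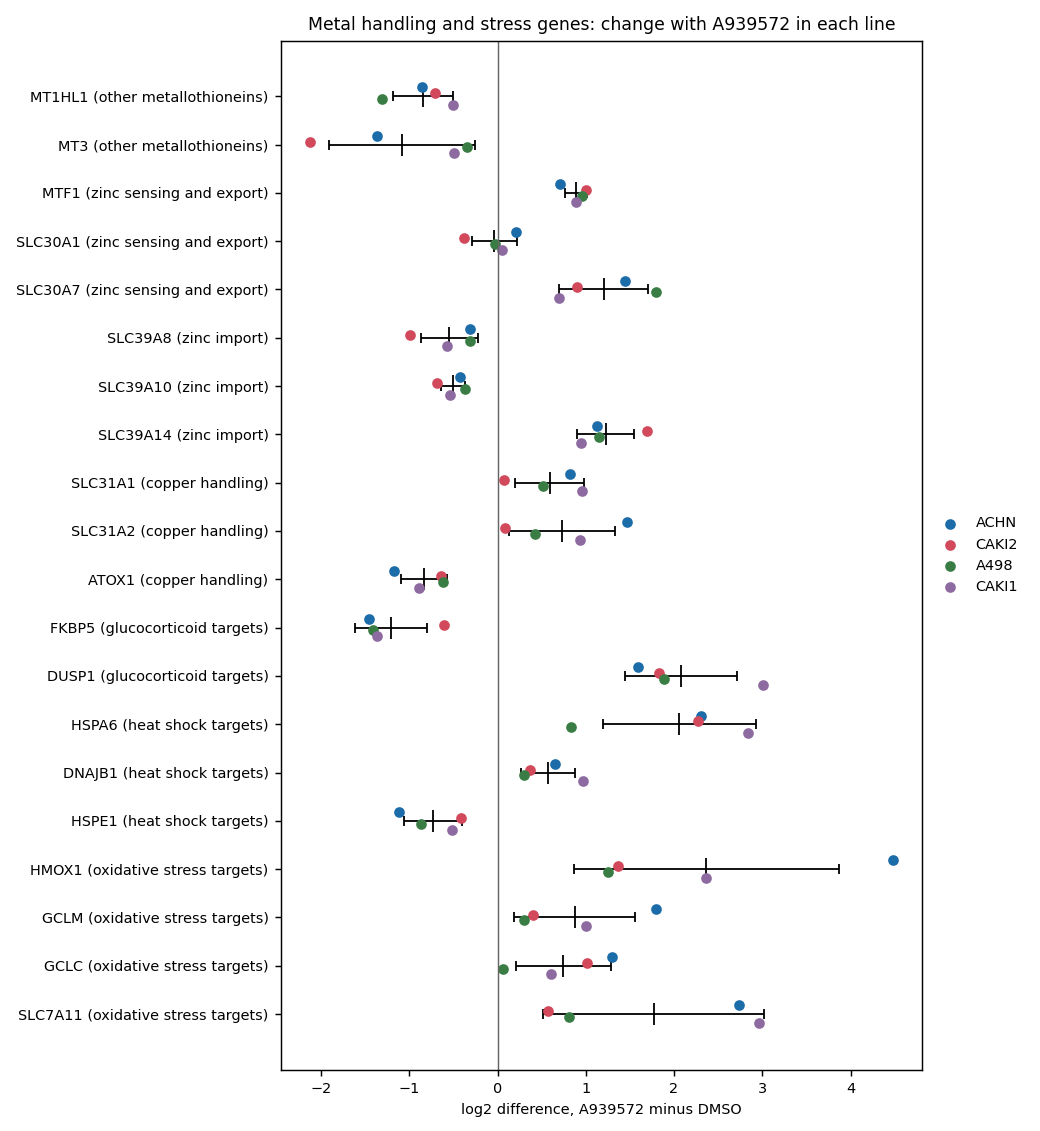
Log2 difference, A939572 minus DMSO, for the named genes of metal handling and of known metallothionein inducers, by brightest probe set, with 1 coloured point per line and black bars for the mean ± SD over 4 lines. NQO1, SRXN1 and OSGIN1 are not drawn. MT1HL1 and MT3 lie below 0 in every line, MTF1, SLC30A7 and SLC39A14 above 0 in every line, and SLC30A1 on both sides.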

How the data were processed

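Total RNA was reverse transcribed and transcribed in vitro into biotin-labelled cRNA, per the labels' protocols. The authors deposited intensity signals on a linear scale, 1 per probe set. How probes were summarized is not given in the sources used here. Deposited values show that the authors scaled each array to a trimmed mean (2% at each end) of 500.067 to 500.073.

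After 62 control probe sets were left out, log2(signal + 16) was quantile normalized, because array medians spanned 6.40 to 6.64. Probe sets at or above the median of all (27307) were fitted with limma 3.58.1 in R 4.3.3 (lmFit, eBayes with a variance trend, cell line as a block), 2-sided, with Benjamini-Hochberg adjustment at 0.05. The median SE was 0.18 (log2) on 9.85 degrees of freedom, and the number of arrays limits precision. After the group mean was taken from each array, the 2 arrays of a line correlated at 0.775 to 0.828, so the line pairs the samples. Of 41091 probe sets with 1 symbol, 41037 took a current symbol from a GRCh38.p14 gene table by Entrez ID. Probe sets were fitted, not genes, and every member is named. Of each list, up to 4 genes past the threshold with the largest change are named, or 2 with the smallest p where none passed, by brightest probe set, with MTF1 and SLC30A1 always, and the 5 genes of highest correlation with the members' mean profile. NQO1, SRXN1 and OSGIN1 are named as well, as the oxidative stress genes that did not pass. Members and lists were chosen with earlier results of these data known. Alternatives covered scaling, offset, filter, block, trend, lines, the unit of the fit and cross-hybridizing probe sets.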

Additional observations from a re-analysis of the deposited data

Results flagged for a closer look

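MT1M probe set 217546_at stood apart in ACHN given DMSO, at a log2 level of 11.49. The gap to the next line was 0.857 of the range of the 4 DMSO arrays and exceeded Dixon's 95% critical value. This was 1 flag among 33 sets of 4 values, no more than the about 1 in 20 that chance gives. ACHN was also highest in treated cells, at 10.41 against 5.95 in CAKI1. The same probe set moved in opposite directions between lines, with a log2 difference of -1.08 in ACHN and 0.67 in CAKI1. The difference between these lines was not tested, since each has 1 array per treatment, and the CAKI1 signals were 43.3 with A939572 and 21.1 with DMSO, below the medians of their arrays.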

How the results depend on the processing

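The 9 tested metallothionein probe sets all passed under either other scaling, offset 64 or 1, no filter, a stricter filter, no variance trend, and with any line left out. With a line left out the count of all probe sets past the threshold ran from 4751 to 5713. The log2 differences of the 9 then ran from -1.35 for MT1G 204745_x_at to -0.53 for MT2A. Without the replicate block 0 of 9 passed in limma (1 at an unadjusted p under 0.05), as did 0 of 53 list genes (11 unadjusted) and 94 of all probe sets (7088 with the block), where the spread between lines enters the residual. By gene, 6 of 6 passed with the brightest probe set and 5 of 6 (not MT1G) with the mean of probe sets, over 3706 and 2866 genes called. Without probe sets ending in _x_at or _s_at only MT1M remained, at -0.15, and 0 of 1 passed (0 unadjusted), with 3966 called in all and 12 of 32 list genes. Of the list genes 21 passed, and 13 with no variance trend. The A498 count of 2-fold falls was 1 under both other scalings. Centring on medians gave 4335 higher and 2841 lower calls, 60.4% higher against 50% with quantile normalization. List gene alternatives were chosen after seeing the data. Dim probe sets limit what can be said of MT1M and of MT1G 210472_at.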
